A study of Mus musculus with 6 samples.

Results

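Expression of 49 genes for folding, exporting and checking secreted proteins in the endoplasmic reticulum (ER) was compared between thyroid glands labelled Thy-Tet1-/- and thyroid glands of Thy-Tet1+/+ mice. The genes were chosen by name for their roles, with earlier results of these data known. All 49 were found among the 21878 genes of the count table. They comprised 15 lumenal chaperones and oxidoreductases, 9 translocon genes, 5 signal peptidase genes, 7 genes of the signal recognition particle (SRP) and its receptor, 7 genes of ER-associated degradation and 6 regulators of the unfolded protein response. The study collected whole thyroid glands from female mice at 12 weeks for RNA sequencing, with 3 libraries per group, to ask how gene expression differs when Tet1 is deleted in the thyroid. Thy-Tet1-/- mice came from crosses of Tet1 flox mice with mice that express Cre in follicular epithelial cells from embryonic life, so that other cells of the gland keep their Tet1 alleles. The Thy-Tet1+/+ controls were wild type at Tet1, and the labels name no drug or other agent for either group. Glands were collected with n = 3 per group, and p-values measure the spread between these libraries. The labelled tissue is thyroid, although the protocol text speaks of retinas, and Tg, the thyroglobulin gene, made up 21.2 to 29.4% of all counts.

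Total counts ranged from 8867683 in Thy-Tet1+/+ replicate 1 to 19950898 in Thy-Tet1+/+ replicate 2, and 3 counts corresponded to 0.152 to 0.356 CPM (counts scaled to a common library size after TMM normalisation). The members lay far above this floor, with means of 21.1 CPM for Ddit3 to 3560 CPM for Hspa5 in Thy-Tet1+/+, and all 49 were among the 14143 genes that passed the filter on low counts. Tet1 itself went against the label. Its level was 5.69, 3.80 and 3.44 CPM in Thy-Tet1+/+ and 9.37, 9.60 and 12.2 CPM in the libraries labelled Thy-Tet1-/-, a log2 fold change of 1.28 (SE 0.27, adjusted p = 0.101 by edgeR's quasi-likelihood test). All directions below are therefore those of the libraries as labelled. The paper reported lower TET1 protein by tissue staining, and lower hydroxymethylcytosine, the product of TET1, in thyroids of Thy-Tet1-/- mice. Gene counts do not show which exons a transcript holds, and other cells of the gland keep their Tet1 alleles. Why the Tet1 counts differed from the label was not tested. Of 10 follicular cell markers 9 passed the filter on low counts, the exception being Slc26a4.

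Secreted proteins enter the ER while they are being made. SRP binds the emerging signal peptide, the SRP receptor docks the ribosome, the Sec61 channel admits the chain and signal peptidase removes the signal. Chaperones, lectins and disulfide isomerases then fold the protein, and chains that fail are sent back to the cytosol for degradation. When unfolded chains accumulate, the sensors encoded by Ern1 (IRE1), Eif2ak3 (PERK) and Atf6 raise the expression of this machinery. Follicular cells make and secrete large amounts of thyroglobulin, a big glycoprotein with many disulfide bonds, and are rich in rough ER.

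The sensors act on these genes partly through a short promoter sequence, the ER stress response element (ERSE), in which CCAAT and CCACG stand 9 bases apart, and through a shorter form (ERSE-II) in which ATTGG and CCACG stand 1 base apart. RefSeq promoter windows of build GRCm38.p6, running from 250 bases before to 50 bases after the start of transcription, were matched for 39 of the 49 members. ERSE was found on either strand in 9 of these 39 members (23.1%) and in 37 of 27025 genes with a window (0.137%). ERSE-II was found in 2 of the 39 members (5.13%), Herpud1 and Dnajb11, and in 12 of the 27025 genes (0.0444%). Of the other sequences searched on both strands, TGACGTGG was in 0 of the 39 members and in 0.714% of all genes, and TGATGNAA was in 1 member, Herpud1 (2.56%), in 4.51% of all genes and in 2.69% of the tested genes with a window. Among tested genes the shares were 0.169% for ERSE, 0.0802% for ERSE-II and 1.01% for TGACGTGG. None of the matches overlapped another. The ERSE and ERSE-II sites before the start of transcription are shown because their share was higher in members than in all genes. Most members with a window carried neither element. The members were chosen by name for their roles, so this share is no result of the counts. Each is given with 10 bases on either side, read in the direction in which the element is spelled, with coordinates of the element alone and its fixed letters in capitals:
Hspa5, chr2:34772025-34772043, forward strand: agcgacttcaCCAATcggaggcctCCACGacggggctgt
Calr, chr8:84847075-84847093, forward strand: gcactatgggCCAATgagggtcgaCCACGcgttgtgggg
Herpud1, chr8:94386377-94386387, forward strand: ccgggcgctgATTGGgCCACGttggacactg
Derl3, chr10:75893242-75893260, reverse strand: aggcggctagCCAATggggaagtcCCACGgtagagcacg
Hsp90b1 distal, chr10:86705638-86705656, reverse strand: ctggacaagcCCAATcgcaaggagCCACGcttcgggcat
Hsp90b1 proximal, chr10:86705533-86705551, forward strand: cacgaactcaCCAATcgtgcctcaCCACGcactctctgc
Canx, chr11:50325800-50325818, reverse strand: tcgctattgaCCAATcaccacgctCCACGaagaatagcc
Pdia6, chr12:17266491-17266509, forward strand: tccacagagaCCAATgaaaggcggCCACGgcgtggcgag
Dnajc3, chr14:118937827-118937845, forward strand: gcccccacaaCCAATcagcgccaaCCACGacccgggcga
Creld2, chr15:88819520-88819538, reverse strand: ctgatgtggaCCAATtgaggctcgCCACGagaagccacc
Syvn1, chr19:6046532-6046550, forward strand: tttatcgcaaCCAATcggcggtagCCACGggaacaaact

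The sites lay between 212 and 26 bases before the RefSeq start, and Hsp90b1 carried a pair of them. The Hspa5 site lies after the GENCODE start of that gene (chr2:34771970), from which its position is given below. The ERSE-II of Dnajb11 began 7 bases after the start. The 250 bases before the start are given for Hspa5, the most abundant member, and for Herpud1, one of the members with the largest change, with the element in capitals. The Hspa5 window is chr2:34771840-34772089 on the forward strand and the Herpud1 window is chr8:94386179-94386428 on the forward strand:
Hspa5: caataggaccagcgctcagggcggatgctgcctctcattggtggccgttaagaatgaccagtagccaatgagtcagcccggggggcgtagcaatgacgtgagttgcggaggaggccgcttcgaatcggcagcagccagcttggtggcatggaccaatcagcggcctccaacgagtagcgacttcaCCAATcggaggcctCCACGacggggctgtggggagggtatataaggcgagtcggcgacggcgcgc
Herpud1: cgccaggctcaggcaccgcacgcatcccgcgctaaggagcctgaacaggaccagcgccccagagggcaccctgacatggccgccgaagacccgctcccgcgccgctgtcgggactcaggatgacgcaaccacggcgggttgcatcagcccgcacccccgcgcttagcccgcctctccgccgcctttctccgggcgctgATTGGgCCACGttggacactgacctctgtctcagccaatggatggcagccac

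Members with an ERSE had about the same median change as members whose window lacked it. Of the 9 members with the element, 1 (Hspa5) met the limits described next, with a median log2 fold change of -0.33 over the 9. Of the 30 members whose window lacked it, 6 met them, also with a median of -0.33, and of the 10 members without a window 6 met them, with a median of -0.60. All were lower, as were 3.66% of all tested genes by these limits. The 30 include Herpud1 and Dnajb11, which carry ERSE-II. At an unadjusted p under 0.05 in edgeR's quasi-likelihood test, 5 of the 9 and 13 of the 30 were lower (10.2% of all tested genes). Without overlap between the groups, 6 of the 9 and 14 of the 30 were lower (14.3%). Only exact matches to the spelled sequences were counted, so a window without one can still hold a near match. Members without a window were not searched, and these medians and counts are descriptions without a test.

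As a group the ER genes were lower in the libraries labelled Thy-Tet1-/- under TMM scaling, a direction that turned when libraries were scaled to Tg or to epithelial genes. A gene was taken to differ when it changed by more than 1.5-fold with an unadjusted p under 0.05 in edgeR's quasi-likelihood test, the limits the study used for its own gene list. By these limits 13 of 49 members were lower and 0 were higher, against 3.66% of all tested genes lower and 5.54% higher. The members were chosen with earlier results of these data known, so such comparisons are descriptions and no independent support. At an unadjusted p under 0.05 alone, 25 members were lower and 0 higher, against 10.2% and 8.71% of all tested genes. The 3 values of each group did not overlap in 28 members, all lower, against 14.3% of all tested genes lower without overlap. The median log2 fold change was -0.38 over the members (interquartile range -0.59 to -0.21) and 0.0006 over all tested genes, and 44 members had a negative value, against 49.9% of all tested genes. After Benjamini-Hochberg adjustment over all 14143 genes, 0 members and 16 genes in all (0.113%) passed 0.05 in edgeR, with 25 members at an unadjusted p under 0.05, whereas DESeq2 passed 18 members, all lower, against 8.43% of all tested genes, 4.54% as lower. A two-sided exact permutation test of a single member cannot give a p below 0.10 with 3 libraries against 3.

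The direction of the group depended on what the libraries were scaled to. Tg stood at 252697, 313667 and 285590 CPM in Thy-Tet1+/+ and at 205155, 236526 and 190892 CPM in the libraries labelled Thy-Tet1-/- (log2 fold change -0.43, SE 0.18, adjusted p = 0.262). With libraries scaled to Tg, the median of all tested genes moved up to 0.43 and that of the members to 0.04, and with libraries scaled to 10 epithelial genes these medians were 0.49 and 0.09. With plain library totals they were 0.19 and -0.19. Rescaling libraries moves all genes nearly alike, so the distance of the members to the other genes is set by construction in these settings and says nothing of stability. The members' median lay 0.38 below that of all tested genes as reported. On leaving out each library in turn it lay between 0.47 and 0.32 below, with 40 to 47 of the 49 members under the median of all genes. Fewer cells of a type and less RNA of these genes per cell cannot be told apart in whole glands.

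**Figure D1:**
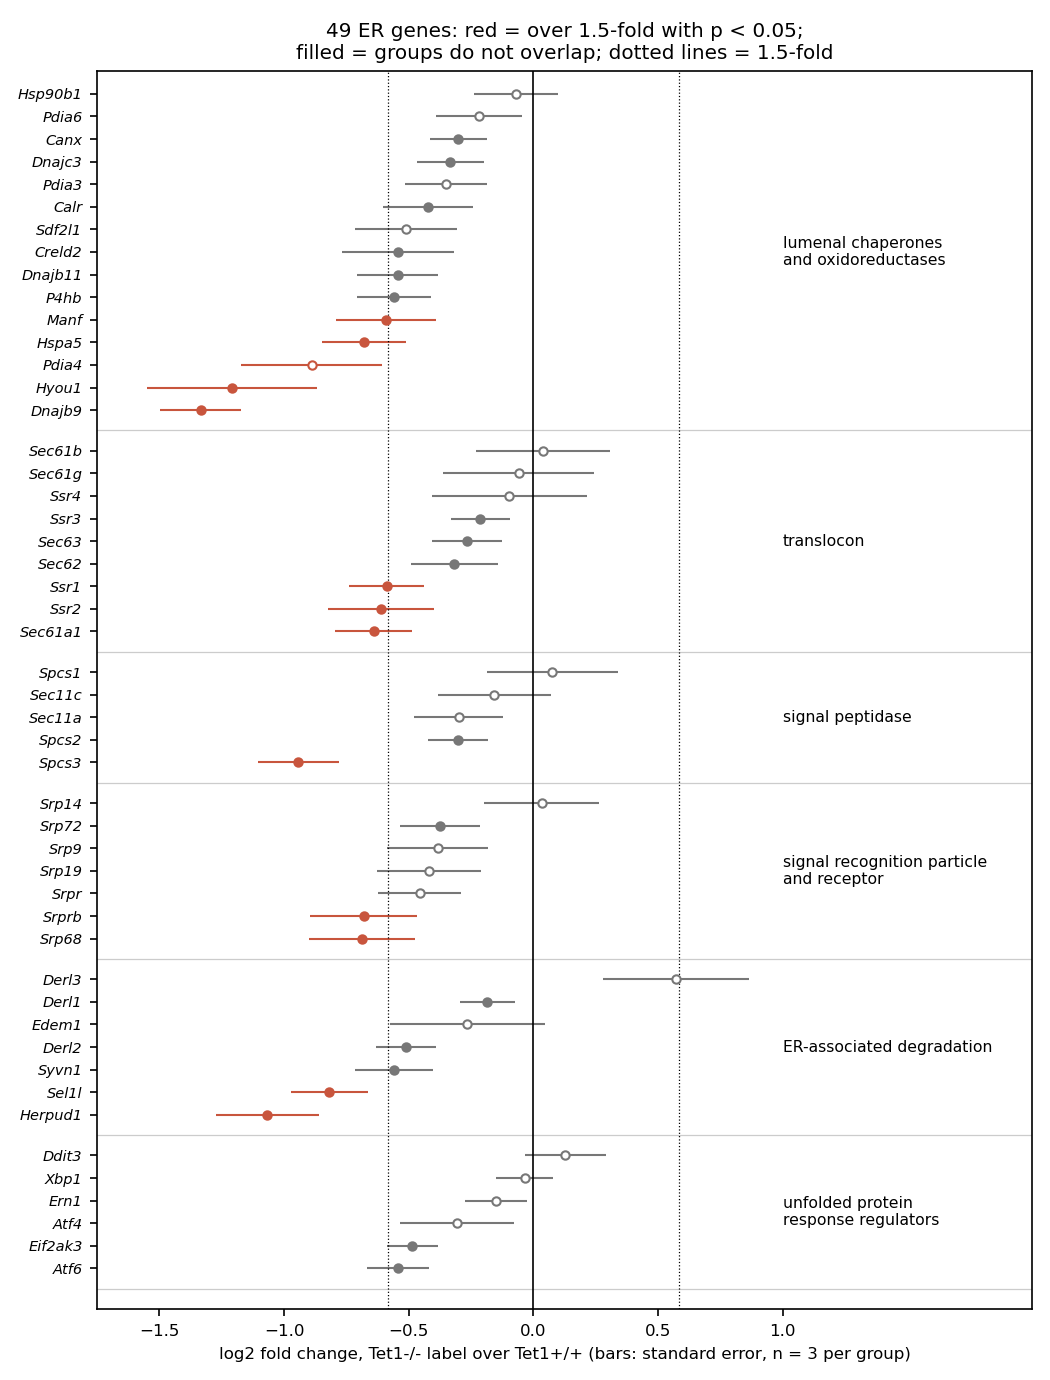
Log2 fold change of each of the 49 members, libraries labelled Tet1-/- over Tet1+/+, with its standard error (edgeR, 3 libraries per group, TMM scaling), arranged by role. Red marks the 13 members past 1.5-fold with an unadjusted p under 0.05, filled points mark members whose groups do not overlap, and 44 of 49 values lie left of 0, which falls to 21 of 49 when libraries are scaled to epithelial genes and 22 when scaled to Tg.

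The lumenal chaperones and oxidoreductases formed the largest class. All 15 had a negative log2 fold change (49.9% of all tested genes), 5 met the limits as lower (3.66%), 11 had an unadjusted p under 0.05 (10.2%) and 10 were lower without overlap (14.3%). The median of the class was -0.54, which became -0.07 under epithelial scaling and -0.11 under Tg scaling.

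Dnajb9, which encodes ERdj4, a J-domain partner of the chaperone BiP, showed the largest change of all members. It was at 361, 257 and 359 CPM in Thy-Tet1+/+ and at 127, 125 and 135 CPM in the libraries labelled Thy-Tet1-/- (chr12:44205559-44210326). The groups were far apart, and the values under the Thy-Tet1-/- label lay close together. The log2 fold change was -1.33 (SE 0.16, adjusted p = 0.0555), and Dnajb9 met the limits in all 20 alternative analyses. Hyou1, the nucleotide exchange factor of BiP also known as GRP170, was at 1468, 561 and 781 CPM in Thy-Tet1+/+ and at 421, 377 and 418 CPM in the libraries labelled Thy-Tet1-/- (chr9:44379490-44392369). Here the control libraries were far apart, with replicate 1 well above its companions, while the libraries labelled Thy-Tet1-/- were close together. The log2 fold change was -1.21 (SE 0.34, adjusted p = 0.145), and Hyou1 did not meet the limits with a muscle covariate or with epithelial or Tg scaling. Without Thy-Tet1+/+ replicate 1 the limits were met with a value, relative to all genes, of -0.74 in place of -1.21.

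Hspa5, which encodes BiP itself, the main HSP70 chaperone of the ER, was at 3640, 2936 and 4103 CPM in Thy-Tet1+/+ and at 2404, 2101 and 2160 CPM in the libraries labelled Thy-Tet1-/- (chr2:34771970-34777547). The groups did not overlap, and the level under the Thy-Tet1-/- label was 62.4% of the control level (log2 fold change -0.68, SE 0.17, adjusted p = 0.118). The call was lost without Thy-Tet1+/+ replicate 3, the library with the highest Hspa5. Pdia4, a protein disulfide isomerase, was at 1164, 541 and 906 CPM in Thy-Tet1+/+ and at 541, 442 and 426 CPM in the libraries labelled Thy-Tet1-/- (chr6:47796141-47813430). Control replicate 2 and replicate 1 under the other label had nearly the same level, so that the groups touched. The log2 fold change was -0.89 (SE 0.28, adjusted p = 0.174), and the limits were no longer met without Thy-Tet1+/+ replicate 1. Manf, a small ER protein that is secreted under stress, was at 394, 497 and 642 CPM in Thy-Tet1+/+ and at 379, 318 and 321 CPM in the libraries labelled Thy-Tet1-/- (chr9:106838312-106891979). Its log2 fold change of -0.59 (SE 0.20, adjusted p = 0.191) was just past the limit, and 13 of 20 alternatives put it inside.

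The other 10 lumenal genes stayed inside the limits. P4hb, the founding disulfide isomerase, had a log2 fold change of -0.56 (SE 0.15), and the BiP cochaperone gene Dnajb11 and Creld2 each had -0.54 (SE 0.16 and 0.23). Each of these 3 genes was without overlap between the groups and below an unadjusted p of 0.05. The lectin chaperones for glycoproteins had log2 fold changes of -0.42 (SE 0.18) for Calr and -0.30 (SE 0.12) for Canx, again without overlap. Pdia3, the isomerase that works with these lectins, had -0.35 (SE 0.16) and Pdia6 had -0.22 (SE 0.17), both with overlapping groups. Hsp90b1, which encodes GRP94, the HSP90 of the ER, was at 2463, 2247 and 2823 CPM in Thy-Tet1+/+ and at 2763, 2356 and 2055 CPM in the libraries labelled Thy-Tet1-/-. The groups overlapped widely, with a log2 fold change of -0.07 (SE 0.17), the value nearest to 0 in its class.

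The genes of the BiP system were not tested against each other. In log2 fold change, Dnajb9 and Hyou1 stood at -1.33 and -1.21, Hspa5 at -0.68, Dnajb11 at -0.54, Sdf2l1 at -0.51 (SE 0.20) and Dnajc3, which encodes the cochaperone p58IPK, at -0.33 (SE 0.13). Per kilobase of the longest annotated transcript, Hspa5 had the highest control level of all members, 969 CPM per kilobase, followed by Calr (935), Hsp90b1 (779) and Pdia3 (595). The lowest was Ern1 with 7.76 CPM per kilobase.

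**Figure D2:**
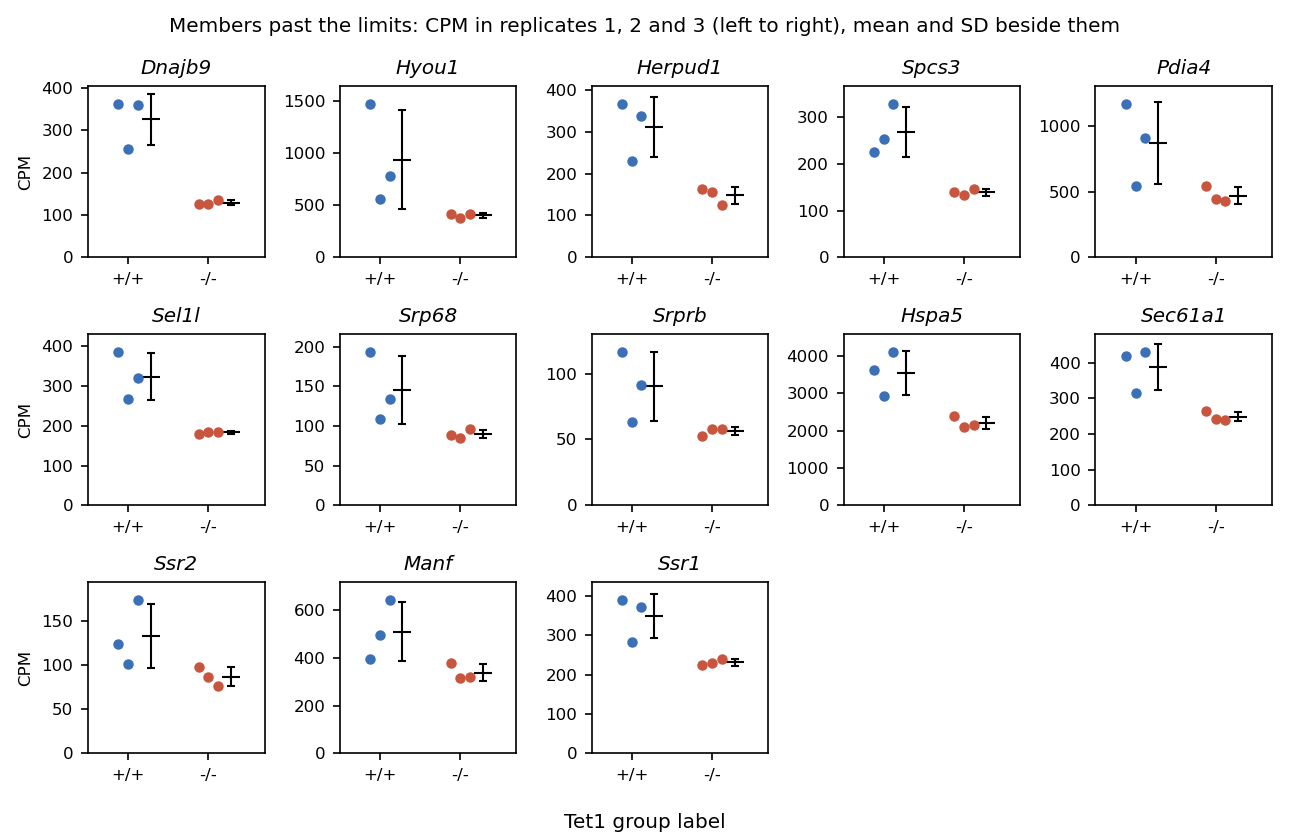
CPM (TMM scaling) of the 13 members past the limits in each library, with the mean and SD of the 3 libraries beside them, for the labels Tet1+/+ (blue) and Tet1-/- (red). Each vertical axis starts at 0. The Tet1-/- values lie close together and under the Tet1+/+ values in 12 of 13 genes, Pdia4 being the exception, under this scaling; scaled to Tg counts, the groups stay apart and lower in Dnajb9 and Spcs3 only.

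At the translocon, the channel subunit and a pair of TRAP subunits were lower under TMM scaling. TRAP, the translocon-associated protein complex encoded by Ssr1 to Ssr4, helps some chains enter the channel. Of 9 genes in this class 3 met the limits as lower (3.66% of all tested genes), 0 were higher and 6 were lower without overlap (14.3%), with a median log2 fold change of -0.27 that became 0.20 under epithelial and 0.15 under Tg scaling. Sec61a1, the pore-forming subunit, was at 420, 314 and 429 CPM in Thy-Tet1+/+ and at 264, 242 and 241 CPM in the libraries labelled Thy-Tet1-/- (chr6:88503579-88518905). All 3 control values were above all values of the other label. The log2 fold change was -0.64 (SE 0.15, adjusted p = 0.116), and it dropped inside the limits without Thy-Tet1+/+ replicate 1 or without replicate 3. An antisense transcript, Gm44170, shares 549 bases of exon with Sec61a1, and whether counting used strand is not stated.

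Ssr1 was at 388, 284 and 372 CPM in Thy-Tet1+/+ and at 224, 229 and 241 CPM in the libraries labelled Thy-Tet1-/- (chr13:37966605-37994217), a log2 fold change of -0.59 (SE 0.15, adjusted p = 0.122). Ssr2 was at 124, 102 and 174 CPM against 98.5, 86.6 and 76.3 CPM (chr3:88575876-88588419), a log2 fold change of -0.61 (SE 0.21). Both were close to the limit, and 12 and 10 of the 20 alternatives, respectively, put them inside it. Ssr3, the translocon gene with the most counts, was at 405, 370 and 420 CPM against 340, 367 and 324 CPM, with a log2 fold change of -0.21 (SE 0.12) and no overlap. The small subunits Sec61b and Sec61g and the TRAP subunit Ssr4 showed no shift beyond their spread, with log2 fold changes of 0.04 (SE 0.27), -0.06 (SE 0.30) and -0.10 (SE 0.31). In all 3 genes, Thy-Tet1+/+ replicate 1 was the lowest and replicate 3 the highest of the 6 libraries. Sec62 and Sec63, which assist import after translation, had -0.32 (SE 0.18) and -0.27 (SE 0.14) without overlap.

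Signal peptidase was represented by its catalytic subunits Sec11a and Sec11c and by Spcs1, Spcs2 and Spcs3. Of these 5 genes only Spcs3 met the limits, as lower (3.66% of all tested genes). The class had a median log2 fold change of -0.30, which became 0.20 under epithelial and 0.15 under Tg scaling. Spcs3, an accessory subunit needed for cleavage, was at 226, 253 and 328 CPM in Thy-Tet1+/+ and at 139, 133 and 147 CPM in the libraries labelled Thy-Tet1-/- (chr8:54520433-54529998). The groups were well apart, and the level was 52.0% of control (log2 fold change -0.94, SE 0.16, adjusted p = 0.0805). The limits were met in 18 of 20 alternatives. Sec11c, with the highest CPM of the class over all 6 libraries, was at 197, 201 and 319 CPM against 254, 199 and 191 CPM and did not separate (log2 fold change -0.16, SE 0.23). Spcs2 had -0.30 (SE 0.12) without overlap, Sec11a had -0.30 (SE 0.18) with overlap and Spcs1 had 0.08 (SE 0.26) with overlap. Exons of Spcs1 share 252 bases with Glt8d1 on the opposite strand.

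In the signal recognition particle and its receptor 2 of 7 genes met the limits, Srp68 and Srprb, both lower (3.66% of all tested genes). The class median of -0.42 became 0.07 under epithelial and 0.04 under Tg scaling. Srp68, a protein of the signal-binding domain of the particle, was at 193, 109 and 134 CPM in Thy-Tet1+/+ and at 88.7, 85.4 and 96.1 CPM in the libraries labelled Thy-Tet1-/- (chr11:116245166-116274217). Srprb, the membrane anchor of the receptor, was at 116, 63.1 and 91.3 CPM against 52.7, 58.0 and 57.8 CPM (chr9:103188032-103202137). In both genes the control libraries spread widely around higher values, replicate 1 being the highest, and neither met the limits without it. The log2 fold changes were -0.69 (SE 0.21, adjusted p = 0.168) and -0.68 (SE 0.22, adjusted p = 0.174). An annotated same-strand transcript, Gm20425, shares 888 bases with Srprb. Srpr, the other receptor subunit, was at 354, 255 and 328 CPM against 228, 255 and 200 CPM (log2 fold change -0.46, SE 0.17), with nearly the same level in 1 library of each group. Srp72, the partner of Srp68, had -0.37 (SE 0.16) without overlap, and Srp9 and Srp19 had -0.38 and -0.42 (SE 0.20 and 0.21) with overlap. Srp14, the partner of Srp9, was at 0.03 (SE 0.23).

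Among 7 genes of ER-associated degradation, Herpud1 and Sel1l met the limits as lower (3.66% of all tested genes). Derl3 had a positive log2 fold change that did not meet them. The class median was -0.51, -0.04 under epithelial and -0.09 under Tg scaling. Herpud1, a membrane protein that organises the degradation complex and a known target of the stress response, was at 365, 230 and 338 CPM in Thy-Tet1+/+ and at 163, 156 and 125 CPM in the libraries labelled Thy-Tet1-/- (chr8:94386438-94395377). Its level was 47.7% of control (log2 fold change -1.07, SE 0.21, adjusted p = 0.0948), with the limits met in 19 of 20 alternatives. Sel1l, the scaffold of the ubiquitin ligase, was at 385, 268 and 319 CPM against 180, 185 and 186 CPM (chr12:91806043-91849157). The 3 libraries labelled Thy-Tet1-/- agree closely and lie under every control, with a log2 fold change of -0.82 (SE 0.15, adjusted p = 0.0919) and the limits met in 18 of 20 alternatives. Syvn1, the ligase that Sel1l holds, was at 95.4, 77.8 and 110 CPM against 62.6, 58.1 and 71.6 CPM (log2 fold change -0.56, SE 0.16, no overlap).

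The 3 derlins, membrane proteins of the retrotranslocation channel, did not move together. Derl2 had a log2 fold change of -0.51 (SE 0.12) and Derl1 one of -0.18 (SE 0.11), each without overlap. Derl3 was at 64.1, 45.2 and 104 CPM in Thy-Tet1+/+ and at 115, 110 and 92.3 CPM in the libraries labelled Thy-Tet1-/-. The difference of 0.57 in log2 CPM, as fitted (SE 0.29, adjusted p = 0.343), was the highest of all members, and the groups overlapped through Thy-Tet1+/+ replicate 3, without which Derl3 met the limits as higher. Edem1, a lectin that extracts misfolded glycoproteins, was at 143, 118 and 130 CPM against 89.1, 69.9 and 166 CPM. Replicate 3 of the Thy-Tet1-/- label was thus the highest library and its companions the lowest, and the log2 fold change was -0.27 (SE 0.31). Exons of Derl2 share 231 bases with Mis12 on the opposite strand.

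**Figure D3:**
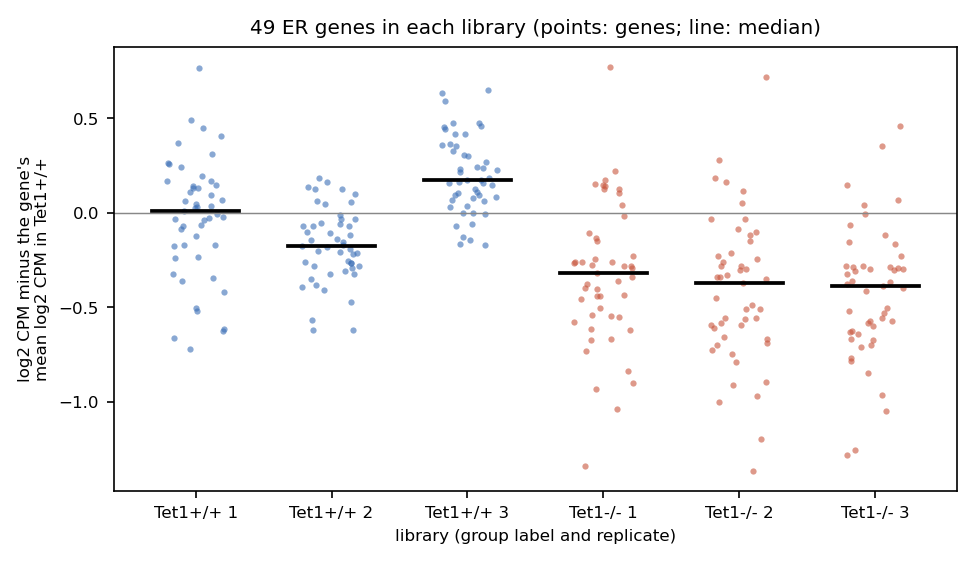
Log2 CPM (TMM scaling) of each of the 49 members in each library, minus the mean log2 CPM of that gene in the 3 Tet1+/+ libraries; each point is a gene and each line the median of a library. The medians are 0.0076, -0.18 and 0.17 in Tet1+/+ and -0.32, -0.37 and -0.38 under the Tet1-/- label; with libraries scaled to epithelial genes or to Tg the members' median difference turns to 0.09 and 0.04.

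The regulators of the unfolded protein response gave 0 of 6 members past the limits (3.66% of all tested genes lower, 5.54% higher). Their median of -0.23 became 0.27 under epithelial and 0.21 under Tg scaling. A pair of the 3 sensors was lower without overlap. Eif2ak3, the kinase PERK that slows translation, was at 77.8, 76.6 and 85.0 CPM in Thy-Tet1+/+ and at 56.2, 54.3 and 60.6 CPM in the libraries labelled Thy-Tet1-/-. Its spread was small, and the log2 fold change of -0.49 (SE 0.10, adjusted p = 0.0988) was inside the fold limit. Atf6, the membrane-bound transcription factor that binds ERSE after cleavage, was at 144, 115 and 133 CPM against 81.9, 95.0 and 91.7 CPM (log2 fold change -0.54, SE 0.12, adjusted p = 0.109). Ern1, the sensor IRE1, was at 55.0, 58.9 and 47.7 CPM against 44.9, 52.6 and 48.2 CPM (log2 fold change -0.15, SE 0.12) and overlapped. An unnamed transcript, Gm43292, shares 485 bases of exon with Eif2ak3 on the opposite strand.

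The transcription factors downstream of these sensors showed no difference past the limits. Xbp1, whose messenger RNA is spliced by IRE1, was at 297, 326 and 324 CPM in Thy-Tet1+/+ and at 325, 309 and 291 CPM in the libraries labelled Thy-Tet1-/-. The log2 fold change was -0.035 (SE 0.11), and gene counts do not separate its spliced and unspliced forms. Atf4, which PERK raises mainly at the level of translation, was at 95.3, 141 and 184 CPM against 114, 117 and 109 CPM (log2 fold change -0.31, SE 0.23). Ddit3, the stress factor CHOP, was at 19.1, 18.4 and 25.7 CPM against 22.4, 23.7 and 23.1 CPM (log2 fold change 0.13, SE 0.16). In these 3 genes the groups overlapped, and a p that misses the threshold does not show that levels were equal.

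Set against Tg counts within the same library, the members as a group were no longer lower. The median log2 difference of the ratio to Tg was 0.07 over the members and 0.44 over all tested genes. Per 1000 Tg counts, Dnajb9 was at 1.43, 0.818 and 1.26 counts in Thy-Tet1+/+ and at 0.620, 0.528 and 0.707 in the libraries labelled Thy-Tet1-/-. Spcs3 was at 0.893, 0.806 and 1.15 against 0.679, 0.561 and 0.771. These were the 2 members below the controls without overlap, against 1.04% of all tested genes. By this ratio 7 members were above the controls without overlap, namely Hsp90b1, Spcs1, Srp14, Derl3, Xbp1, Ddit3 and Ern1, against 37.6% of all tested genes. Hspa5 was at 14.4, 9.36 and 14.4 per 1000 Tg counts in the controls and at 11.7, 8.88 and 11.3 under the other label, with overlap.

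**Figure D4:**
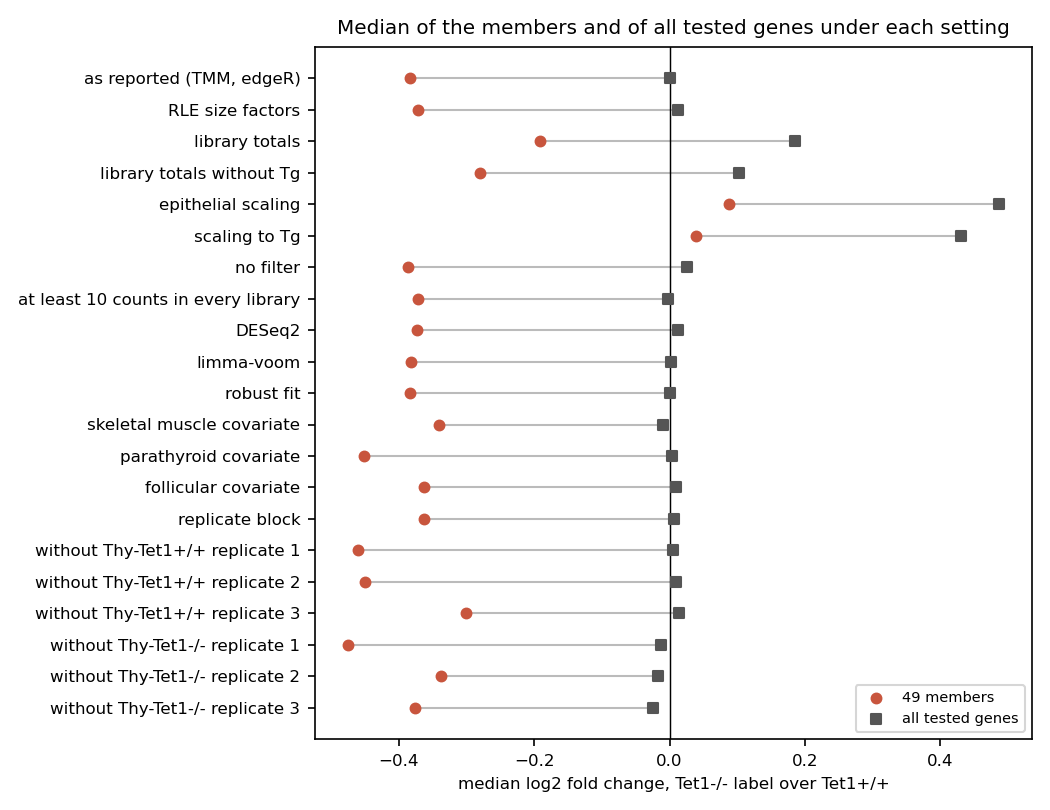
Median log2 fold change (libraries labelled Tet1-/- over Tet1+/+) of the 49 members (circles) and of all tested genes (squares) as reported and in 20 alternative analyses. The members' median turns above 0 when libraries are scaled to epithelial genes (0.09) or to Tg (0.04), where all genes move up alike, so that the gap is fixed; on leaving out single libraries the gap runs from 0.32 to 0.47.

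Libraries of the same group differed in the members and in markers of neighbouring tissues. Thy-Tet1+/+ replicate 3 was the highest of the 6 libraries in 29 members and replicate 1 in 16, and replicate 2 was the lowest control in 32. Of the members past the limits, 5 kept the call on leaving out each single library, namely Dnajb9, Hyou1, Spcs3, Sel1l and Herpud1. Without Thy-Tet1+/+ replicate 3, 8 members were past the limits as lower (4.08% of all tested genes). Without Thy-Tet1+/+ replicate 2 there were 20 (4.10%). Markers of skeletal muscle summed to 7520, 899 and 4622 CPM in Thy-Tet1+/+ and to 121, 8072 and 41.4 CPM in the libraries labelled Thy-Tet1-/-. The member medians of the latter were -0.32, -0.37 and -0.38, and their relation to these sums was not tested. Parathyroid markers summed to 8068, 213 and 31664 CPM against 10741, 21880 and 12032 CPM. With a muscle term in the fit 10 members were lower by the limits, 7 of them among the 13 (3.39% of all tested genes). The members' median then lay 0.33 below that of all genes in place of 0.38. With a parathyroid term 19 members were lower, including all 13 (3.81% of all tested genes).

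Other cell types were examined through marker lists. Plasma and B cells have a large ER of their own, and the 6 of 8 of their markers in the table summed to 17.4 to 26.7 CPM in Thy-Tet1+/+ and to 14.9 to 24.7 CPM in the libraries labelled Thy-Tet1-/-, with Cd79a and Tnfrsf17 among the markers at 0 in some libraries. T cell markers summed to 13.0 to 94.6 and 9.30 to 377 CPM, and macrophage markers to 92.3 to 334 and 135 to 158 CPM. Adipocyte markers summed to 153 to 496 CPM and 356 to 1617 CPM, with 3 of 6 higher by the limits, and genes of handling and heat to 285 to 437 and 180 to 299 CPM, with 2 of 6 lower. C cell, fibroblast, endothelial and cartilage markers overlapped between the groups in their sums. The epithelial list used for scaling summed to 2526 to 3332 CPM and 1958 to 2035 CPM, with 4 of its 10 genes lower by the limits. The follicular list summed to 256709 to 316859 and 193893 to 239731 CPM, almost all of it Tg. Of its 9 tested genes 1 was higher and 1 lower by the limits, and 2 were higher and 3 lower without overlap. Fits were run with muscle, parathyroid and follicular terms only. The follicular term was the mean log2 CPM of its list. It was nearly alike in both groups, at 8.91, 8.78 and 8.71 for the controls against 8.87, 8.84 and 8.73. It could therefore take up little of a group difference and does not test the part of follicular cells. The part of the other cell types in the members' difference was not tested.

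Genes next to the members in the same pathways were examined in 6 further lists of 117 tested genes, of which 14 were lower and 2 higher by the limits, against 3.66% and 5.54% of all tested genes. These lists too were chosen with earlier results of these data known. Genes of ER exit and retrieval, which load cargo into COPII vesicles and return escaped ER proteins, were lower in several cases under TMM scaling. Of 20 such genes 5 were lower (3.66% of all tested genes), 0 higher, and 16 were lower without overlap (14.3%), with a median of -0.40 that became 0.07 under epithelial and 0.02 under Tg scaling. The COPII coat genes Sec24d and Sec23b had log2 fold changes of -0.98 (SE 0.12, adjusted p = 0.0555) and -0.83 (SE 0.11, adjusted p = 0.0722). The cargo receptor gene Surf4 had -0.81 (SE 0.15), and Kdelr3 and Kdelr2, which encode receptors for the KDEL signal of lumenal chaperones, had -0.74 (SE 0.23) and -0.64 (SE 0.16).

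Of 21 other ER folding genes 2 were lower by the limits, Ero1lb and Ero1l, the oxidases that recharge disulfide isomerases. Ero1lb was at 499, 385 and 432 CPM in Thy-Tet1+/+ and at 303, 247 and 248 CPM in the libraries labelled Thy-Tet1-/- (log2 fold change -0.72, SE 0.15). Ero1l had -0.62 (SE 0.19). The median of that list was -0.34. Among 22 other degradation genes the median was -0.25, and Ube2g2, a ubiquitin-conjugating enzyme, and Edem3, a relative of Edem1, were lower by the limits, with -0.72 (SE 0.12) and -0.60 (SE 0.15). These 2 medians became 0.15 and 0.24 under epithelial scaling.

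The other lists lay nearer to all tested genes in their medians. Counts of 1 in lists of this size are close to the shares of 3.66% and 5.54% over all tested genes. Of 18 other targeting and translocation genes 1 was lower, Srp54a, whose near-identical copies can share reads, and 1 was higher, Sec61a2, with a median of -0.10. Sec61a2, the less abundant alternative pore subunit, was at 22.3, 12.6 and 16.6 CPM in Thy-Tet1+/+ and at 29.0, 27.2 and 31.7 CPM in the libraries labelled Thy-Tet1-/-. The fitted log2 change of 0.78 (SE 0.22, adjusted p = 0.141) ran opposite to that of Sec61a1. Of 17 other regulators Wfs1, which encodes wolframin, an ER membrane protein, was lower, at 129, 114 and 151 CPM against 58.7, 67.8 and 59.2 CPM (log2 fold change -1.08, SE 0.14, adjusted p = 0.0641), with a list median of -0.09. Of 19 ATF4 target genes Sesn2, Aars and Ddit4 were lower (15.8%, against 3.66% of all tested genes) and Cth was higher, with a median of -0.07. Sesn2, a sestrin induced by stress, was the only gene of these lists with an adjusted p under 0.05 in edgeR, at 57.3, 55.9 and 40.9 CPM against 15.7, 19.2 and 16.5 CPM (log2 fold change -1.58, SE 0.17, adjusted p = 0.0466).

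**Figure D5:**
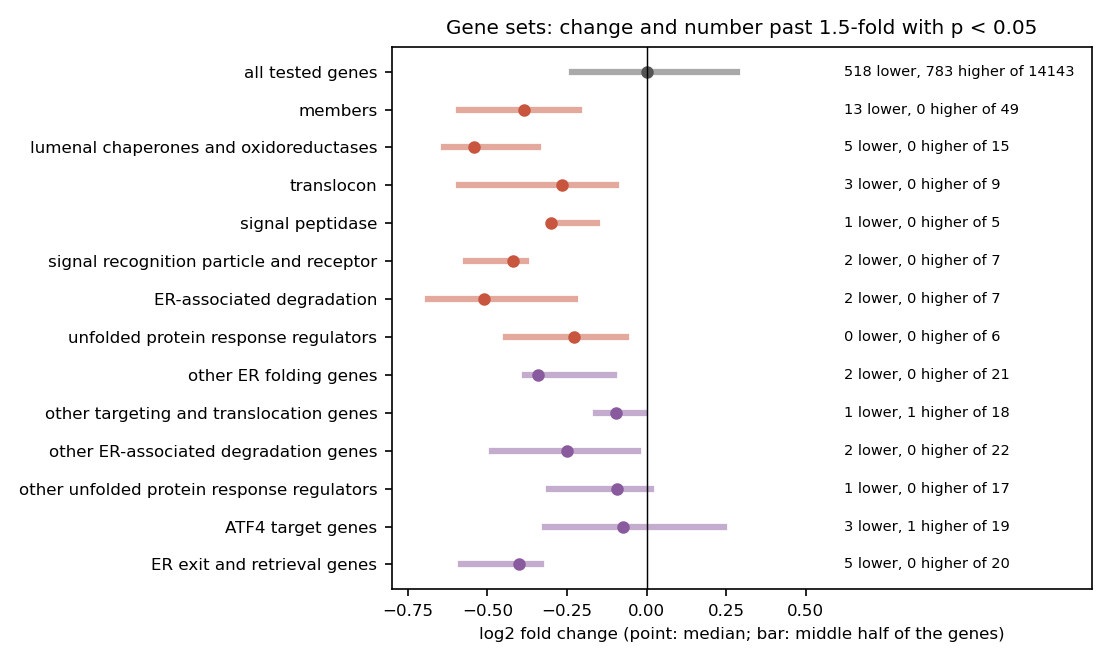
Median (point) and interquartile range (bar) of the log2 fold changes, libraries labelled Tet1-/- over Tet1+/+ (TMM scaling), for all tested genes, the 49 members, their 6 role classes and 6 lists of related genes, with the number past 1.5-fold at an unadjusted p under 0.05 at the right. Lumenal chaperones (-0.54), degradation genes (-0.51), signal recognition genes (-0.42) and ER exit genes (-0.40) lie well left of 0; under epithelial scaling these medians become -0.07, -0.04, 0.07 and 0.07.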

How the data were processed

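RNA of 6 mouse thyroid libraries was sequenced by the study after poly(A) selection and directional library preparation. One table, deposited by the authors, gives read counts for each gene with symbols and NCBI gene identifiers, and its values are whole numbers that had not been normalised. The submitters' processing notes name the build mm10. The aligner, the counting program and the annotation are not given in the sources used here, nor is whether counting used strand. Of 21878 genes 4100 had no read, and 27 symbols that had become dates were restored from their identifiers. There were 0 other value columns.

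Libraries were grouped by their labels. Replicates of a group differed by far more than sampling noise (chi-square per degree of freedom 38.7 to 88.6), so none was counted as a repeat. The comparison used edgeR 4.0.16 under R 4.3.3 with filterByExpr, TMM factors and the quasi-likelihood functions glmQLFit and glmQLFTest. Benjamini-Hochberg adjustment ran over the 14143 genes tested. The biological coefficient of variation was 0.327, so the spread between libraries rather than depth limits most comparisons. Floors of 3 counts cover counting error only. CPM used TMM-scaled library sizes, and scores a prior count of 2. DESeq2 1.42.0 and limma 3.58.1 (voom) were alternatives, with other scalings, filters, covariates and left-out libraries. Longest transcripts, positions and exon overlaps came from GENCODE M21 on GRCm38, the build also called mm10, and promoter windows from RefSeq.

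Replicate numbers are shared between the groups but did not pair them: deviations of same-numbered libraries correlated at -0.17, -0.37 and -0.19. The members and the lists of other genes were chosen with earlier results of these data known. Full values are given for members past the limits, for the sensors and factors of the unfolded protein response, for the most abundant member of each class by CPM and for Derl3 and others outside that rule, which were chosen after their values were seen. Of the other lists, genes past the limits are named.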

Additional observations from a re-analysis of the deposited data

How the results depend on the processing

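Of the values of single members over 20 alternatives, relative to the median of all tested genes, 861 kept direction and call, 70 lost the call, 30 gained it and 19 changed sign, none of the last called. Rescaling moves that median with the members, so these counts of direction say nothing of stability under other scalings. As fitted, 44 members were negative as reported, 21 with epithelial scaling and 22 with scaling to Tg. Counts of members as lower by the limits were 11 with RLE factors, at least 10 counts or DESeq2, 13 without a filter or with the robust fit, 12 with a follicular covariate, 10 with voom or a muscle covariate and 19 with a parathyroid covariate. In these settings 3.08 to 3.81% of all tested genes were lower. With library totals 6 members were lower (1.69% of all tested genes), and with totals without Tg 6 (2.38%). Epithelial scaling gave 1 (0.544%), and scaling to Tg, added after the data were seen, gave 2 (0.686%). In these scalings 1, 1, 2 and 1 members were higher, against 1470, 1143, 3990 and 3342 of all tested genes. DESeq2 had 1 member higher, against 888 of all tested genes. Leaving out each library gave 8 (without Thy-Tet1+/+ replicate 3) to 20 (without Thy-Tet1+/+ replicate 2) lower and 0 to 1 higher, with 3.51 to 4.78% of all tested genes lower. Adjusted p passed in 1 member with at least 10 counts, 1 with the robust fit and 18 in DESeq2, and in 0 in the other settings. The members' median was -0.19 with library totals, 0.088 with epithelial scaling and 0.040 with scaling to Tg, because the median of all genes moved with them, and -0.48 to -0.30 on leaving out each library.

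Over all tested genes, 1470 were higher and 239 lower with library totals, 1143 and 337 with totals without Tg, 3990 and 77 with epithelial scaling and 3342 and 97 with scaling to Tg. The share of calls that were higher, 60.2% as reported, became 86.0%, 77.2%, 98.1% and 97.2%. Leaving out each library gave 570 to 859 higher and 504 to 687 lower. Adjusted p passed in 8 genes with library totals, 4 without Tg, 1675 with epithelial scaling, 25 with at least 10 counts, 1192 in DESeq2, 0 with the muscle, parathyroid or follicular covariate, and 0 to 1 on leaving out each library. The cause was not tested.

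The replicate block, by a number that pairs nothing in the labels, left 10 members lower, all among the 13 (3.05% of all tested genes). It left 17 members at an unadjusted p under 0.05 as lower, with 1900 of all tested genes at that p in either direction. No gene had an adjusted p under 0.05.

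Signs changed, relative to all genes, for Sec61b with the muscle covariate (-0.028), Ssr4 with the muscle (0.0064) and follicular (0.030) covariates, Sec61g with the follicular covariate (0.087) and the replicate block (0.020) and Srp14 with the parathyroid covariate (-0.0040).

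On leaving out each library in turn the value relative to all genes ranged for Hsp90b1 from -0.20 to 0.048, for Sec61b from -0.23 to 0.28, for Sec61g from -0.35 to 0.26, for Ssr4 from -0.36 to 0.28, for Spcs1 from -0.18 to 0.31, for Sec11c from -0.31 to 0.093, for Srp14 from -0.19 to 0.25 and for Xbp1 from -0.085 to 0.023.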

Other observations

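Transcript length went with the members' level in single libraries of both groups. Across the 49 members, the correlation of a gene's deviation in one library from the mean of the other two of its group with the log2 length of its longest transcript was 0.49 in Thy-Tet1+/+ replicate 1, -0.65 in Thy-Tet1+/+ replicate 3, -0.48 in replicate 1 and 0.45 in replicate 3 of the libraries labelled Thy-Tet1-/-, and -0.10 and -0.18 in the second replicates. These points are genes of one library, which share its depth and preparation and are not independent. The deviations of a group also cancel for each gene, so opposite values in its replicates 1 and 3 are not separate findings. The same correlation over all tested genes is not given here. Sec61b, Sec61g, Ssr4, Spcs1 and Srp14, all among the 24 shorter members, were lowest of the controls in Thy-Tet1+/+ replicate 1. Their log2 fold changes lay between -0.10 and 0.08. Other short members did not share this. In Sdf2l1 (1108 bases), Ssr2 (1189), Derl3 (1321) and Creld2 (1366) the lowest control was replicate 2. Among the 24 shorter members 6 were lower by the limits, with a median log2 fold change of -0.33, and among the 25 longer members 7, with a median of -0.42 (3.66% of all tested genes lower). Without Thy-Tet1+/+ replicate 1 these counts were 5 and 4, with medians of -0.45 and -0.46 (4.03% of all tested genes lower). The same split of all tested genes by length is not given here.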
